A study of Mus musculus with 27 samples.

Results

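Zone 1 and zone 2 of the non-pregnant (NP) mouse liver were compared gene by gene, from 3 libraries of each zone. Of the 21823 genes in the deposited table, 11348 had an FPKM of at least 1 in 3 or more of these 6 libraries and were tested. FPKM is the number of sequenced fragments per kilobase of transcript, scaled to the mapped fragments of the library, so it is a level per length. All mice were wild-type C57BL/6 females, given in the study's methods as virgin C57BL/6N animals of 8 to 14 weeks, and no allele or agent set the NP groups apart from each other. The zones were cut from 5 µm frozen sections with a laser microdissection microscope, 2 mm2 per zone, so a library holds hepatocytes together with every other cell in the cut area. The 21 other libraries of the series are NP zone 3 and the 3 zones at days 8 and 16 post coitum (dpc8 and dpc16), again with 3 libraries each. The study states that its experiments were repeated in different mice, and the labels tie no library to an animal, so p-values measure the spread between these libraries, which zones cut from the same mouse could share.

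Blood enters the liver lobule at the portal tract, where a portal vein, a hepatic artery and a bile duct run in connective tissue, and leaves it at the central vein. By convention zone 1 lies around the portal vein, zone 3 around the central vein and zone 2 between them. Periportal hepatocytes are known for gluconeogenesis, urea synthesis and amino acid breakdown, and pericentral hepatocytes for cytochrome P450 enzymes, bile acid synthesis and glutamine synthesis, with Wnt ligands from the central vein endothelium maintaining pericentral genes. The study names a portal vein zone, a parenchymal zone and a central vein zone, and labels 1, 2 and 3 are read here in that order by the same convention.

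One library stood apart before any comparison. NP zone 1 replicate 1 held 15.4 summed FPKM of 4 Y chromosome genes (Ddx3y, Eif2s3y, Kdm5d and Uty) although all mice are labelled female, against at most 2.25 in the 5 others. It also held 2159 summed FPKM of 13 connective tissue genes, where the 5 others held 107 to 252, and 1460 of 10 smooth muscle genes, where they held 32.6 to 87.5. Its part in the results was not tested, and values without it are given beside the results it moves most. The 6 libraries had an estimated 12.68 to 21.17 M mapped reads, read off the steps between low FPKM values, and 1 read on a transcript of 1 kilobase was worth 0.0472 to 0.0789 FPKM. Hepatocyte genes such as Alb, the albumin gene, led every library, with 6.15% to 11.98% of the FPKM sum.

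Of the 11348 genes, 15 (0.132%) were lower in zone 1 than in zone 2 and 5 (0.0441%) were higher, so that 20 (0.176%) were called in all. A call is an adjusted p under 0.05 in limma, with Benjamini-Hochberg adjustment over all 11348 genes and one estimate of the spread over all 27 libraries. Before adjustment, p was under 0.05 for 221 genes (1.95%) higher in zone 1 and 368 (3.24%) lower, 589 (5.19%) in all. Of the 15 genes lower in zone 1, 5 were cytochrome P450 genes, and all 15 had a higher mean still in zone 3. The genes higher in zone 1 had low levels in it and were near or at 0 in zone 2. Only Cyp2e1 and Lhpp were called when the 6 libraries were fitted alone. Without zone 1 replicate 1 the calls numbered 13, with Slc1a2, Ahr, 5330417C22Rik, Rdh9, Sult3a1, Cyp2c69 and Gm45692 lost, and without zone 1 replicate 3 again 13, with Oat, Kcne3 and Pcp4l1 among those lost. Whichever 1 of the 6 libraries was left out, 10 of the 20 remained called: Cyp2e1, Lhpp, Cyp3a16, Cyp3a41a, Cyp2c38, Gulo, Lect2, Nxpe2, Scara3 and Lamc3.

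**Figure D1:**
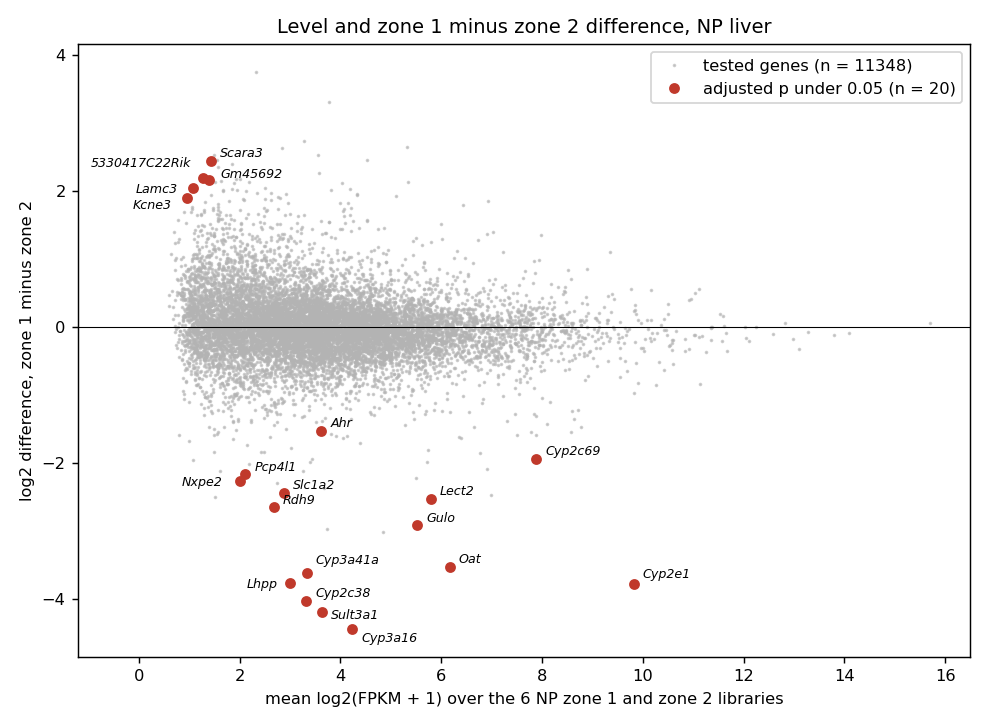
Each point is 1 of the 11348 tested genes, by its mean log2(FPKM + 1) over the 6 NP zone 1 and zone 2 libraries (horizontal axis) and its log2 difference, zone 1 minus zone 2 (vertical axis). The 20 called genes are red and named: those lower in zone 1 reach down to -4.43 (Cyp3a16) and span low to very high levels, while the 5 higher in zone 1 sit together at the low end.

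Cyp2e1, the P450 enzyme that oxidises ethanol and paracetamol, had the highest level of any called gene. It stood at 216, 247 and 268 FPKM in the zone 1 libraries and at 4867, 2620.5 and 2875 FPKM in the zone 2 libraries. All zone 2 values were far above all zone 1 values, and the zone 2 mean was 14.2 times the zone 1 mean. The log2 difference, zone 1 minus zone 2, was -3.77 ± 0.41 (SE) with an adjusted p of 4.21e-05 in limma. In zone 3 the level rose further by value, to 9856 ± 2458 FPKM (SD, n = 3).

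The 250 bases upstream of the start sites of Cyp2e1, Oat and Lect2 are shown because these are the 3 called genes with the highest zone 2 levels among those that have 1 promoter entry and no near-identical copy. They are RefSeq sequences of build GRCm38.p6, written 5′ to 3′ on the strand of the gene. Capitals mark CTTTGA, the core that TCF/LEF factors of the Wnt pathway bind, and GTTAAT, a half-site of the hepatocyte factor HNF1, each searched on both strands. The 2 motifs share no bases in these windows.
Cyp2e1: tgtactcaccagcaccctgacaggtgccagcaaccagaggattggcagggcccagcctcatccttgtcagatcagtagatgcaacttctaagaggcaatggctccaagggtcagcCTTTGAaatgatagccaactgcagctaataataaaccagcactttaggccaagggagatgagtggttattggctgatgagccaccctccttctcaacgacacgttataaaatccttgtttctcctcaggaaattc
Oat: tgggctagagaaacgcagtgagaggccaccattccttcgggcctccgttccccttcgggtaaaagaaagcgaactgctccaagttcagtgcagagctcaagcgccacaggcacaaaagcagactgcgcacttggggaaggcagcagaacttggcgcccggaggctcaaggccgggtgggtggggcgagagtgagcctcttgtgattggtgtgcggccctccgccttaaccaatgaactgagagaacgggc
Lect2: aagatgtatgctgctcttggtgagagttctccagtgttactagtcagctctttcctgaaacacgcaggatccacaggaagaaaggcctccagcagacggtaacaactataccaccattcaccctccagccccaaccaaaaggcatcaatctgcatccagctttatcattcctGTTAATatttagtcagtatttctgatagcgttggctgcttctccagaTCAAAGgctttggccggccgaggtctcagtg
The Cyp2e1 window is chr7:140763569-140763818 on the plus strand, the Oat window chr7:132576399-132576648 and the Lect2 window chr13:56548539-56548788, both on the minus strand. CTTTGA began 135 bases before the start site of Cyp2e1, and in Lect2 its reverse complement began 31 bases before the start. Lect2 also held GTTAAT, 78 bases before the start, and the Oat window held neither motif. Promoters were listed for 13 of the 20 called genes, of which 4 (Cyp2e1, Lect2, Slc1a2 and Sult3a1) held CTTTGA, against 13.8% of all 32851 promoter windows of this length. GTTAAT was held by 2 of the 13 (Lect2 and Cyp2c69), against 6.43% of all windows. Such matches describe the letters only.

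Among the other P450 genes lower in zone 1, Cyp3a16 showed the largest difference of all called genes. Its level was 4.26, 3.05 and 2.099 FPKM in zone 1 and 173, 33.0 and 112 FPKM in zone 2. Every zone 2 library exceeded every zone 1 library, although the zone 2 values were themselves spread widely, and the log2 difference was -4.43 ± 0.66 (SE) with an adjusted p of 0.00104. Cyp3a41a stood at 2.56, 2.57 and 0.863 FPKM in zone 1 and at 30.8, 24.3 and 52.7 FPKM in zone 2, a log2 difference of -3.61. Zone 3 held almost no more of it than zone 2, with a mean ratio of 1.15, and none of its zone 3 values lay above all zone 2 values. Cyp3a genes have near-identical copies that can share reads, so the split between them is uncertain.

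In the Cyp2c family, Cyp2c38 measured 1.10, 4.19 and 0.389 FPKM in zone 1 and 37.5, 40.6 and 39.3 FPKM in zone 2. The zone 2 libraries agreed closely with each other, and the log2 difference was -4.02 ± 0.55 (SE, adjusted p 0.000529). Cyp2c69, far more abundant, stood at 95.0, 173 and 105 FPKM in zone 1 and 405, 452 and 535 FPKM in zone 2, a ratio of means of 3.73 and a log2 difference of -1.93. These are neighbours on chromosome 19, 379738 bases apart, and Cyp2c39, Cyp2c67, Cyp2c68 and Cyp2c40 lie between them. None of these 4 was called; Cyp2c39 (-1.10) and Cyp2c67 (-1.23) had non-overlapping zones, while Cyp2c68 (-0.50) and Cyp2c40 (0.28) overlapped. A copy of Cyp3a41a, Cyp3a41b, lies between Cyp3a16 and Cyp3a41a on chromosome 5 and had a log2 difference of -2.49 with an adjusted p of 0.192.

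The whole list of P450 genes of drug and steroid metabolism had 35 members tested of 36, with 5 lower in zone 1, none higher, and a median log2 difference of -0.50, which was -0.30 without zone 1 replicate 1. Over all 11348 genes the median was -0.01, and 0.132% were called lower. The zones did not overlap for 13 members lower in zone 1 and 1 higher, or 40% of the list, where 4.22% of all genes lay above and 5.53% below. Without zone 1 replicate 1, 13 members lay below and 7 above, where 8.94% of all genes lay above and 10.3% below. Cyp1a2, the caffeine-oxidising enzyme and a marker the study uses, stood at 36.9, 46.1 and 109.8 FPKM in zone 1 and 260.5, 226 and 253 FPKM in zone 2, without overlap, and its log2 difference of -2.08 had an adjusted p of 0.172. Cyp3a11 (634 ± 286 against 974 ± 180 FPKM, SD, n = 3) and Cyp2c29 (467 ± 168 against 671 ± 103 FPKM) overlapped between the zones. Cyp2f2, a periportal enzyme, pointed the other way with 1048 ± 477 FPKM in zone 1 and 454 ± 111 FPKM in zone 2 and was not called.

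Genes of conjugation, by which sulfate, glucuronate or glutathione is attached to a compound, gave 1 call in 35 members tested. Of all genes, 0.176% were called. Sult3a1, a sulfotransferase, measured 0.432, 2.46 and 4.07 FPKM in zone 1 and 29.0, 47.9 and 100.5 FPKM in zone 2. The groups were far apart, with a log2 difference of -4.18 ± 0.69 (SE) and an adjusted p of 0.00452 in limma. The list's median was -0.41, and it moved to 0.00 without zone 1 replicate 1. With all libraries 1 member lay above and 5 below without overlap, where 4.22% and 5.53% of all genes did. Without that replicate 8 lay above and 5 below, where 8.94% and 10.3% of all genes did. The most abundant members of the list overlapped between the zones. Gstm1 stood at 792 ± 188 against 1170 ± 405 FPKM, and Gsta3 at 724 ± 368 against 1033 ± 24.4 FPKM (SD, n = 3).

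Oat and Lhpp, which lie next to each other on chromosome 7 with 34239 bases and 1 gene (Nkx1-2, not tested) between them, were both lower in zone 1. Oat encodes ornithine aminotransferase, which links ornithine to glutamate. Its level was 37.6, 18.8 and 11.5 FPKM in zone 1 and 277, 251 and 206 FPKM in zone 2, a 10.8-fold ratio of means with no overlap. The log2 difference was -3.52 ± 0.62 (SE, adjusted p 0.00918). Lhpp, a histidine phosphatase, stood at 1.26, 0.890 and 1.40 FPKM in zone 1 and 32.0, 26.1 and 27.05 FPKM in zone 2. Replicates of each zone lay close together, and the log2 difference of -3.75 ± 0.43 (SE) had an adjusted p of 4.21e-05.

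Gulo encodes L-gulonolactone oxidase, the last enzyme of vitamin C synthesis, and rose from 9.97, 14.4 and 26.9 FPKM in zone 1 to 151, 117 and 112 FPKM in zone 2. No zone 1 value came near a zone 2 value, and the log2 difference was -2.91 ± 0.33 (SE, adjusted p 4.21e-05). Scara3, a gene called in the opposite direction, lies 32850 bases from Gulo on chromosome 14, with Clu between them. Clu, which encodes the secreted chaperone clusterin, overlapped between the zones (729 ± 159 against 616 ± 82.9 FPKM, SD, n = 3). The Gulo and Scara3 transcription units lie on the same strand.

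Slc1a2, a glutamate transporter of the innermost pericentral hepatocytes, gave 1.183, 2.43 and 3.31 FPKM in zone 1 and 16.02, 16.03 and 16.6 FPKM in zone 2. The zones did not overlap, with a log2 difference of -2.43 and an adjusted p of 0.0266, but the call was lost in all 6 fits that left out 1 library. Its main step lay further on: the zone 3 mean of 352 FPKM was 21.7 times the zone 2 mean. Rdh9, of the retinol dehydrogenase family, measured 0.295, 2.69 and 2.54 FPKM in zone 1 and 31.8, 15.8 and 6.57 FPKM in zone 2, an uneven set that was still free of overlap (log2 difference -2.65, adjusted p 0.0465). The Rdh9 call was lost in 5 of those 6 fits and held in 5 of the 15 alternative fits in all.

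Lect2, a protein secreted by hepatocytes, stood at 13.7, 21.8 and 36.0 FPKM in zone 1 and 107, 119 and 179 FPKM in zone 2. All zone 2 libraries were higher, with a log2 difference of -2.52 ± 0.37 (SE, adjusted p 0.00104). Ahr, the receptor for dioxins and other aromatic ligands, which induces Cyp1a2, measured 3.14, 10.1 and 7.29 FPKM in zone 1 and 16.4, 23.0 and 20.9 FPKM in zone 2. It had the smallest difference among the called genes, -1.53 on the log2 scale (adjusted p 0.0297), and was not called in 4 of the 6 fits that left out 1 library. Nxpe2 (0.892 ± 0.532 against 8.404 ± 4.36 FPKM, SD, n = 3) and Pcp4l1 (1.22 ± 1.13 against 9.18 ± 5.99 FPKM) were the least abundant genes lower in zone 1, with log2 differences of -2.25 and -2.16.

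All 15 genes lower in zone 1 had a higher mean in zone 3 than in zone 2, and for 13 of them all 3 zone 3 values lay above all zone 2 values. The exceptions were Cyp3a16 with 2 values above and Cyp3a41a with none. On the log2 scale the zone 2 mean lay between 36.0% (Slc1a2) and 93.1% (Cyp3a41a) of the way from zone 1 to zone 3, with a median of 63.5%. A high position places the larger step between zones 1 and 2, and a low one between zones 2 and 3. Since the zone 2 libraries enter both steps, these positions are a description.

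**Figure D2:**
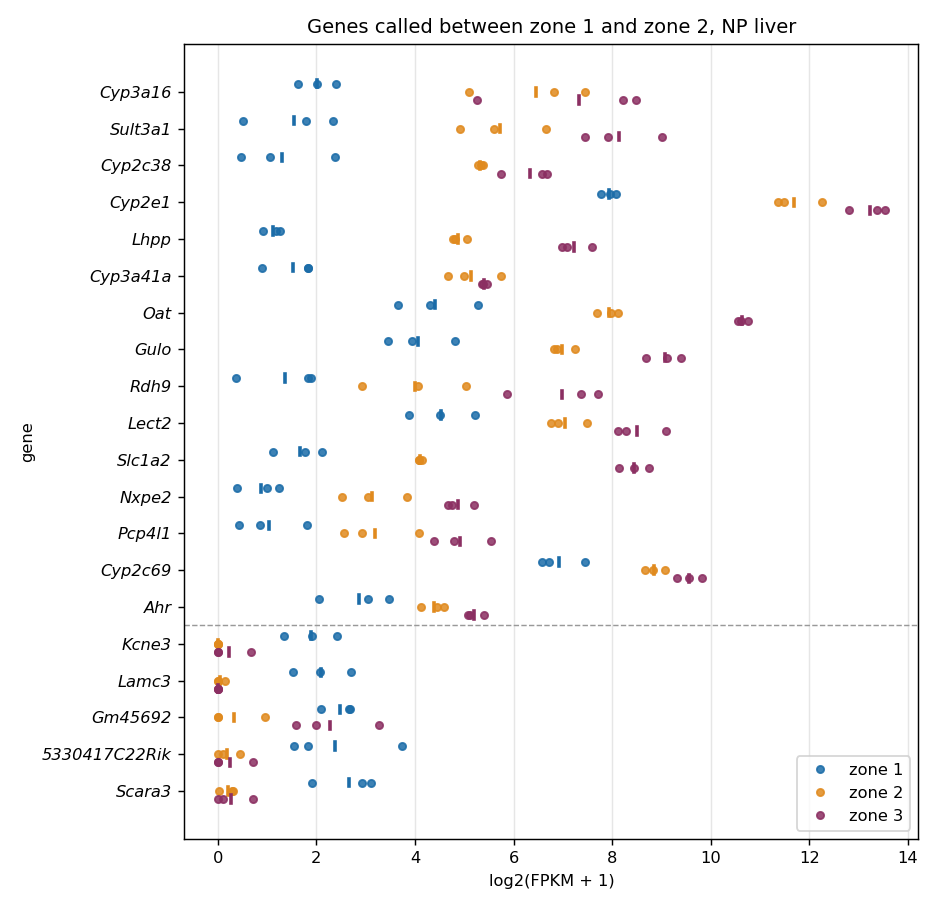
The 20 called genes are listed in rows, and each dot is 1 NP library on the log2(FPKM + 1) axis (blue, zone 1; orange, zone 2; purple, zone 3), with short bars for the group means. Above the dashed line, zone 1 lies lowest and zone 3 has the highest mean for all 15 genes. Below the line, the 5 genes higher in zone 1 are near 0 in zone 2, and Gm45692 alone returns in zone 3.

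The 5 genes called higher in zone 1 passed the filter on low values only through zone 1, with all zone 1 values at 1 FPKM or more and all zone 2 values below it, so their separation was a condition of being tested. Scara3, a scavenger receptor family member, stood at 7.58, 2.78 and 6.64 FPKM in zone 1 and 0.221, 0.0188 and 0.232 FPKM in zone 2. Its log2 difference of 2.45 ± 0.36 (SE) had an adjusted p of 0.00104. Lamc3, the laminin gamma-3 chain of basement membranes, measured 5.47, 1.87 and 3.23 FPKM in zone 1 and was listed at 0.110, 0 and 0 in zone 2 and at 0 in all 3 zone 3 libraries. Its adjusted p was 0.00104 as well.

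Kcne3, an accessory subunit of epithelial potassium channels, stood at 2.75, 1.55 and 4.36 FPKM in zone 1 and was listed at 0 in every zone 2 library, so no fold is given (adjusted p 0.00533). 5330417C22Rik measured 12.3, 1.92 and 2.55 FPKM in zone 1 and 0.369, 0 and 0.0699 FPKM in zone 2, with the highest value in the replicate that stood apart, and it was not called without that library. Gm45692 measured 5.46, 3.26 and 5.31 FPKM in zone 1 and 0, 0.940 and 0 FPKM in zone 2 (adjusted p 0.0306). It was back at 8.58, 2.99 and 1.99 FPKM in zone 3, so it was not graded along the lobule. Its predicted transcript may share reads with near-identical copies, and it was not called in 4 of the 6 fits that left out 1 library, zone 1 replicate 1 among them.

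The next genes by p-value in this direction did not pass. Mmd2 stood at 8.999, 8.10 and 10.998 FPKM in zone 1 and 3.05, 1.39 and 1.97 FPKM in zone 2, an even separation with a log2 difference of 1.75 and an adjusted p of 0.0526. Slc51b, a subunit of the basolateral bile acid exporter of bile duct cells, measured 1.15, 1.11 and 2.97 FPKM in zone 1 and was listed at 0 in all of zone 2 (adjusted p 0.0531). Slc51b passed the filter only through zone 1, as did Msmp (adjusted p 0.0662) and Mfap4 (0.0846), so their separation too was fixed by the filter. Crip1 (0.0846), which did not depend on zone 1 for the filter, also had every zone 1 value above every zone 2 value. Larger differences with wide spread stood beside them, as in Mgp, an inhibitor of calcification in vessel walls, at 3.75 on the log2 scale with an adjusted p of 0.388. Mgp was picked after its values had been seen.

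The zone labels were checked against markers. The lists were chosen with earlier results of these data known, so the check is not independent of them. Of 14 pericentral markers, 13 were tested: 5 were called lower in zone 1 (Cyp2e1, Oat, Gulo, Lhpp and Slc1a2) and none higher. Of all genes, 0.132% were called lower. The zones did not overlap for 11 of the 13, where 5.53% of all genes lay below. The median log2 difference of the list was -2.08 and all 13 values were negative. Glul, glutamine synthetase of the cells next to the central vein, stood at 58.1, 23.6 and 69.0 FPKM in zone 1 and 184, 139.7 and 110.5 FPKM in zone 2 and reached 3082 ± 187 FPKM (SD, n = 3) in zone 3. Its zones did not overlap, and the log2 difference of -1.61 had an adjusted p of 0.211. Cyp2a5 varied strongly within zone 2, at 498 ± 609 FPKM against 72.5 ± 59.9 FPKM in zone 1 (SD, n = 3). Aldh1a1, a retinal dehydrogenase, stood at 138 ± 48.6 against 263 ± 15.3 FPKM.

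The 14 periportal markers gave no call, yet all 14 differences were positive, with a median of 0.78, and 6 lay above without overlap, where 4.22% of all genes did. Without zone 1 replicate 1 the median was 1.11 and 12 of the 14 lay above, where 8.94% of all genes did. Hal, which starts histidine breakdown, measured 512 ± 186 FPKM in zone 1 and 305 ± 74.0 FPKM in zone 2 (SD, n = 3). Gls2, the liver glutaminase, measured 403 ± 119 against 260.0 ± 14.7 FPKM, and Pck1, the key enzyme of gluconeogenesis, 1404 ± 300.4 against 1149 ± 907 FPKM. Cyp17a1, the periportal marker the study uses, stood at 123, 107 and 329.9 FPKM in zone 1 and 79.7, 46.0 and 82.0 FPKM in zone 2. Its zones were apart, but the log2 difference of 1.27 had an adjusted p of 0.968. Aldh1b1 had the largest difference of the list, 1.79 (165 ± 44.3 against 46.6 ± 10.4 FPKM), with an adjusted p of 0.172, and is named after its values had been seen.

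Both lists continued into zone 3. For the 13 pericentral markers, zone 2 lay at a median of 51.4% of the way from zone 1 to zone 3 on the log2 scale (26.7% to 71.0%). For the 14 periportal markers it lay at 18.5% (11.2% to 38.4%), so that these genes fell mainly between zones 2 and 3: Cyp2f2 fell from 454 to 3.31 FPKM by mean, and Hal from 305 to 7.37 FPKM. The difference between the lists was not tested. The 6 midlobular markers tested, among them the hepcidin genes Hamp and Hamp2, had a median of -0.33, with 5 of 6 values negative and no call. Hamp stood at 1122 ± 263 FPKM in zone 1, 1746 ± 457 FPKM in zone 2 (SD, n = 3) and 599.9 FPKM by mean in zone 3, and its zone 1 and zone 2 values did not overlap.

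**Figure D3:**
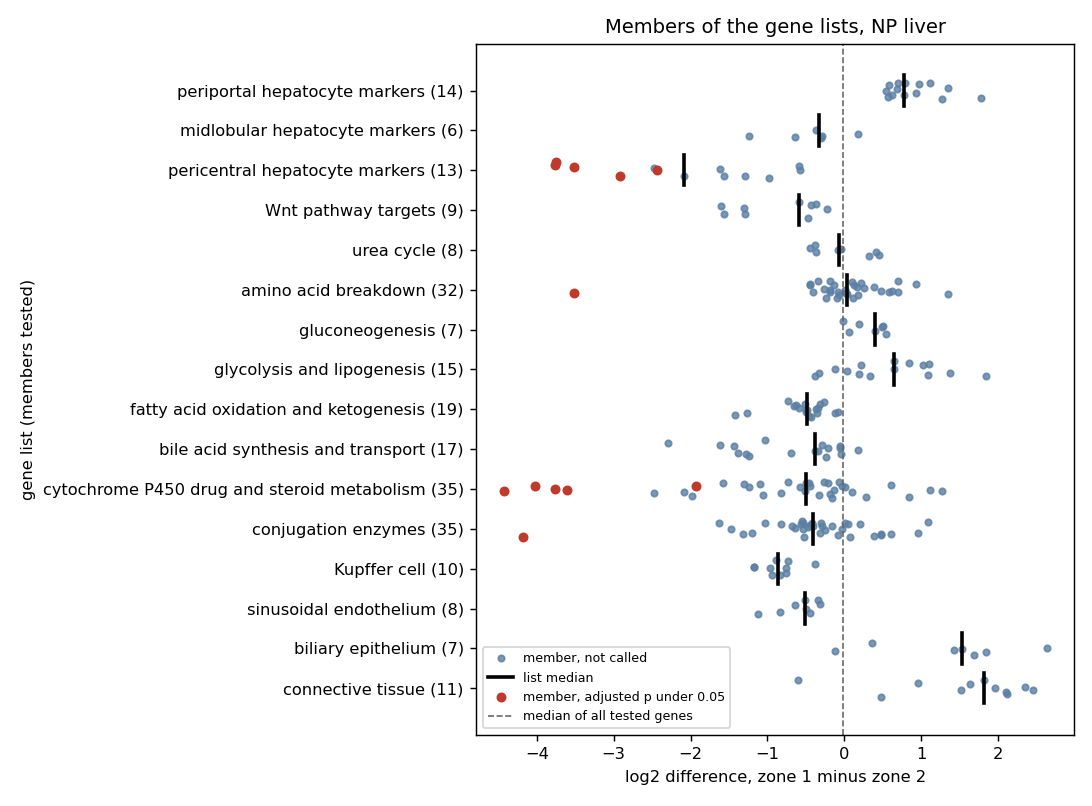
Each dot is a tested member of a gene list by its log2 difference, zone 1 minus zone 2 (horizontal axis), with the number tested beside the name. Thick bars are list medians, red dots are called genes and the dashed line is the median of all 11348 genes at -0.01. The pericentral list reaches far to the left with a median of -2.08, all periportal markers sit on the right, and all fatty acid oxidation and Kupffer cell genes sit on the left.

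Wnt pathway targets followed the pericentral markers in sign. Of 12 genes, 9 were tested, all 9 values were negative with a median of -0.58, and none was called. The zones did not overlap for 5 of the 9, where 5.53% of all genes lay below. Axin2 measured 0.670, 1.177 and 0.330 FPKM in zone 1 and 2.11, 9.98 and 2.69 FPKM in zone 2, with no overlap, a log2 difference of -1.57 and an adjusted p of 0.573. Tbx3, a transcription factor of pericentral hepatocytes, measured 7.86, 6.43 and 1.35 FPKM in zone 1 and 9.28, 23.3 and 8.09 FPKM in zone 2, again without overlap (-1.29, adjusted p 0.696). Notum and Rnf43, feedback inhibitors of Wnt signalling, had differences of -1.60 and -1.30, both with an adjusted p of 0.322. The median stayed negative in all 15 alternative fits and ran from -1.46 (pseudocount 0.1) to -0.51 (without zone 2 replicate 2), with -0.95 without zone 1 replicate 1.

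Among the pathways of periportal hepatocytes, no gene was called higher in zone 1. The urea cycle had 8 genes tested with a median of -0.06, which was 0.29 without zone 1 replicate 1 and -0.34 without zone 1 replicate 3. Ass1, which joins citrulline and aspartate, stood at 2387 ± 788 against 1736 ± 307 FPKM, and Cps1, which feeds ammonia into the cycle, at 1272 ± 464 against 1285 ± 49.2 FPKM (SD, n = 3). Amino acid breakdown had 32 genes tested with 1 call, Oat, where 0.176% of all genes were called. The median was 0.04, with 18 values positive. Without zone 1 replicate 1 the median was 0.32, with 28 of 32 values positive and 13 genes above without overlap in place of 2 (8.94% of all genes in place of 4.22%), and without zone 1 replicate 3 it was -0.11. Its most abundant members, Hpd, Gnmt, Mat1a and Tat, overlapped between the zones. Sds, serine dehydratase, had the largest positive difference of that list, 1.36 (405 ± 75.2 against 164 ± 66.2 FPKM), without overlap and with an adjusted p of 0.883; it was picked after its values had been seen.

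Gluconeogenesis had 7 genes tested and a median of 0.40, with 6 values positive and every gene overlapping between the zones, and a median of 0.19 without zone 2 replicate 3. Without zone 1 replicate 1 the median was 0.49 and 3 of the 7 lay above without overlap, against 8.94% of all genes. The glycolysis and lipogenesis list had no call and a median of 0.65 over 15 genes, which was 0.23 without zone 1 replicate 3. Of the 15, 4 (Fasn, Acly, Pklr and Pnpla3, chosen here for that) lay above without overlap, where 4.22% of all genes did. Scd1, the desaturase and most abundant member, overlapped at 1573 ± 327 against 1479 ± 665 FPKM (SD, n = 3). Cholesterol synthesis and uptake had 21 genes tested with a median of 0.13 and no call. That median had no stable sign: it was -0.33 without zone 1 replicate 3, 0.44 without zone 1 replicate 2 and 0.40 without zone 1 replicate 1.

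Fatty acid oxidation and ketogenesis gave no call. All 19 tested members had lower values in zone 1 (18 without zone 1 replicate 1), with a median of -0.49. The zones did not overlap for 10 of them (52.6%), where 5.53% of all genes lay below. No member had an unadjusted limma p under 0.05, where 3.24% of all genes did with lower values in zone 1. Acadm, the medium-chain dehydrogenase, measured 292 ± 18.1 FPKM in zone 1 and 405 ± 57.0 FPKM in zone 2 (SD, n = 3), without overlap. The list median ran from -0.60 to -0.29 over the 15 alternative fits, the latter without zone 2 replicate 1.

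Bile acid synthesis and transport had 17 genes tested with no call and a median of -0.39, which was -0.63 without zone 1 replicate 2. In zone 1, 3 of the 17 were lower without overlap, where 5.53% of all genes were. Slco1b2, an uptake transporter of the blood-facing membrane, stood at 184 ± 56.9 FPKM in zone 1 and 366 ± 23.5 FPKM in zone 2 (SD, n = 3), and Cyp27a1, of the alternative synthesis pathway, at 119 ± 45.2 against 276 ± 31.4 FPKM. Both were free of overlap, with adjusted p-values of 0.671 and 0.256. Slc27a5 and Slc10a1, which activate and take up bile acids, were alike in their means, at 393 ± 145 against 388 ± 41.3 FPKM and 371 ± 154 against 362 ± 38.1 FPKM.

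No marker gene of another cell type was called between the zones, and in bulk tissue fewer cells of a type and less RNA per cell cannot be told apart. All 10 Kupffer cell genes, which mark the resident macrophages, had lower values in zone 1, with a median of -0.87. The zones did not overlap for 8 of them, where 5.53% of all genes lay below. The summed level of the list was 209 to 289 FPKM in zone 1 and 375 to 610 FPKM in zone 2. In limma 7 members had an unadjusted p under 0.05, where 3.24% of all genes did with lower values in zone 1. Clec4f, the macrophage lectin, measured 40.6, 57.2 and 50.3 FPKM in zone 1 and 97.5, 75.7 and 121 FPKM in zone 2, and the complement gene C1qa 33.2, 47.9 and 44.0 FPKM against 67.9, 59.1 and 87.7 FPKM. Zone 2 was the higher zone for both without overlap, and the list median was -0.78 without zone 1 replicate 1.

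The 8 sinusoidal endothelial genes also had negative values throughout, with a median of -0.51 that was -0.23 without zone 1 replicate 1. The zones did not overlap for 1 of the 8, where 5.53% of all genes lay below. Sums of the list were 89.9 to 199 FPKM in zone 1 and 179 to 254 FPKM in zone 2. The hepatic stellate cell list, with 10 genes tested, had a median of -0.22, or -0.13 without zone 1 replicate 1. The 8 hepatocyte genes overlapped in every case and had a median of -0.15 with 2 values positive, which was 0.15 with 7 positive without zone 1 replicate 1 and -0.33 without zone 1 replicate 3.

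Genes of portal tract cells mostly had positive values. Biliary epithelial genes had 7 members tested of 10, with a median of 1.53 and no call. That median was 0.91 with libraries weighted by quality and 2.84 with a pseudocount of 0.1, and the sums were 105 to 193 FPKM in zone 1 and 28.9 to 173 FPKM in zone 2. Spp1, the osteopontin gene, measured 134, 59.5 and 123 FPKM in zone 1 and 10.7, 2.06 and 115 FPKM in zone 2, where replicate 3 fell among the zone 1 values. Sox9 (5.69, 6.37 and 5.78 FPKM against 0.778, 2.46 and 1.24 FPKM), a transcription factor of bile duct cells, and Epcam were free of overlap and were picked after their values had been seen. Krt19, a keratin of bile ducts, was at 0 in 2 of the 3 zone 2 libraries and at 5.02 FPKM in replicate 2.

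Connective tissue genes had a median of 1.82 over 11 genes tested and smooth muscle genes one of 1.45 over 7. Of the 11, 2, Mfap4 among them, passed the filter only through zone 1, so their positive values were fixed by it. But the medians without zone 1 replicate 1 were 0.41 and -0.14, and the smooth muscle median was 2.75 without zone 1 replicate 3. Col1a1, the main fibrillar collagen chain, measured 554, 21.2 and 4.06 FPKM in zone 1 and 19.3, 5.62 and 6.89 FPKM in zone 2. Acta2, the smooth muscle actin, measured 699, 28.8 and 1.96 FPKM in zone 1 and 24.97, 2.65 and 10.6 FPKM in zone 2. In both genes 1 library carried the zone 1 mean and the remaining libraries overlapped. Dcn, the decorin gene of fibroblasts and stellate cells, ran against the list, at 55.1, 50.6 and 81.5 FPKM in zone 1 and 106, 76.8 and 99.9 FPKM in zone 2. The part of these cells in the 5 genes called higher in zone 1 was not tested.

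**Figure D4:**
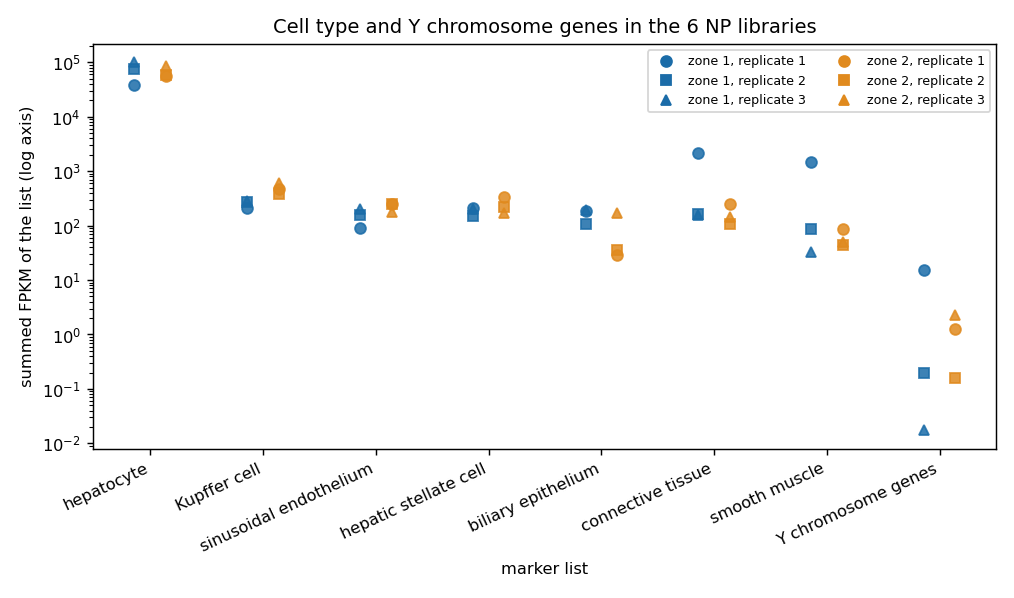
Summed FPKM of 8 marker lists (log axis) in each of the 6 NP libraries, blue for zone 1 and orange for zone 2, with a symbol for each replicate number. Kupffer cell sums are separate, 209 to 289 FPKM in zone 1 and 375 to 610 FPKM in zone 2, while zone 1 replicate 1 alone lies high for connective tissue (2159), smooth muscle (1460) and Y chromosome genes (15.4).

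Genes that follow handling, time of day or growth were read alongside. All 16 immediate early genes had positive values, with a median of 0.59, and 1 lay above without overlap (6.2%, where 4.22% of all genes did). Without zone 1 replicate 1 the median was 0.30 and 12 of the 16 were positive. Egr1, a rapidly induced transcription factor, measured 21.5, 62.1 and 3.55 FPKM in zone 1 and 4.01, 37.5 and 5.81 FPKM in zone 2, so replicate 2 was the highest in each zone. The clock output gene Dbp measured 43.3, 0.481 and 83.9 FPKM in zone 1 and 77.7, 0.727 and 1.04 FPKM in zone 2, and Tef, of the same family, was likewise lower in zone 1 replicate 2 and zone 2 replicates 2 and 3 than in the 3 other libraries. The 20 proliferation genes tested had a median of 0.25, which was -0.22 without zone 1 replicate 1, and no call.

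The same difference, zone 1 minus zone 2, was read in the 12 libraries of these zones from pregnant mice, which the NP difference does not use, although the spread is shared. Of these, 2 at dpc8 (zone 1 replicate 1 and zone 2 replicate 2) and 1 at dpc16 (zone 2 replicate 3) held 16.1 to 23.2 summed FPKM of the Y chromosome genes, against at most 2.97 in the 9 others, and they had the highest smooth muscle levels of their groups. Of the 20 called genes, 19 had the same sign at dpc8 and 19 at dpc16, where 58.1% and 44.4% of all 11348 genes did. The zones did not overlap in the same direction for 18 of the 20 at dpc8, where 4.15% of all genes lay above and 3.21% below, and for 17 at dpc16, where 5% lay above and 3.95% below. At dpc8 15 genes (0.132%) were called between these zones, 14 of them among the 20, and at dpc16 15 (0.132%), 7 of them among the 20. Without all 6 libraries of the series rich in Y-linked RNA, the signs of the 20 genes agreed for 19 and 19 again. Then 15 and 12 of the 20 were called, among 25 and 33 called of all 11348 genes. With all libraries, 3.14% of all genes at dpc8 and 5.24% at dpc16 had an unadjusted p under 0.05. A limma test of the change of the difference itself called 0 genes at either stage. Its unadjusted p was under 0.05 for 241 genes (2.12%) at dpc8 and 502 (4.42%) at dpc16, and the lowest adjusted p was 1 and 0.804.

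Cyp2e1 kept a wide separation, with differences of -4.08 at dpc8 and -3.75 at dpc16, as did Lhpp (-3.02 and -3.17), Lect2 (-2.51 and -2.98), Gulo (-2.97 and -1.96) and Cyp2c69 (-2.15 and -2.08), all called at both stages. Lamc3 (1.56 and 1.75) and Kcne3 (1.82 and 1.60) were the genes higher in zone 1 that were called at both stages too, Kcne3 at neither stage without the libraries rich in Y-linked RNA. Cyp3a16 had a difference of -4.31 at dpc8 and -1.77 at dpc16, where its zone 1 mean was 55.5 ± 8.04 FPKM (SD, n = 3) against 3.14 ± 1.08 FPKM in NP. Cyp3a41a likewise had -3.42 and -1.15, with zone 1 at 18.8 ± 4.65 FPKM at dpc16. The change of the difference from NP was 2.67 for Cyp3a16 and 2.46 for Cyp3a41a at dpc16, each with an adjusted p of 0.804. The dpc16 zone 2 library rich in Y-linked RNA had the lowest zone 2 values of both genes, 108 FPKM of Cyp3a16 and 20.7 FPKM of Cyp3a41a. Without those libraries the dpc16 differences were -2.17 and -1.65, and the changes from NP 2.45 and 2.12, each with a limma adjusted p of 0.9999.

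Gm45692 was the exception in sign at both stages. It was listed at 0 in all zone 1 libraries of dpc8 and dpc16 and in all zone 2 libraries of dpc16, and its dpc8 difference was -0.46. Pcp4l1 had differences of -0.68 at dpc8 and -0.28 at dpc16, with zone 2 means of 2.82 and 0.434 FPKM against 9.18 FPKM in NP.

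**Figure D5:**
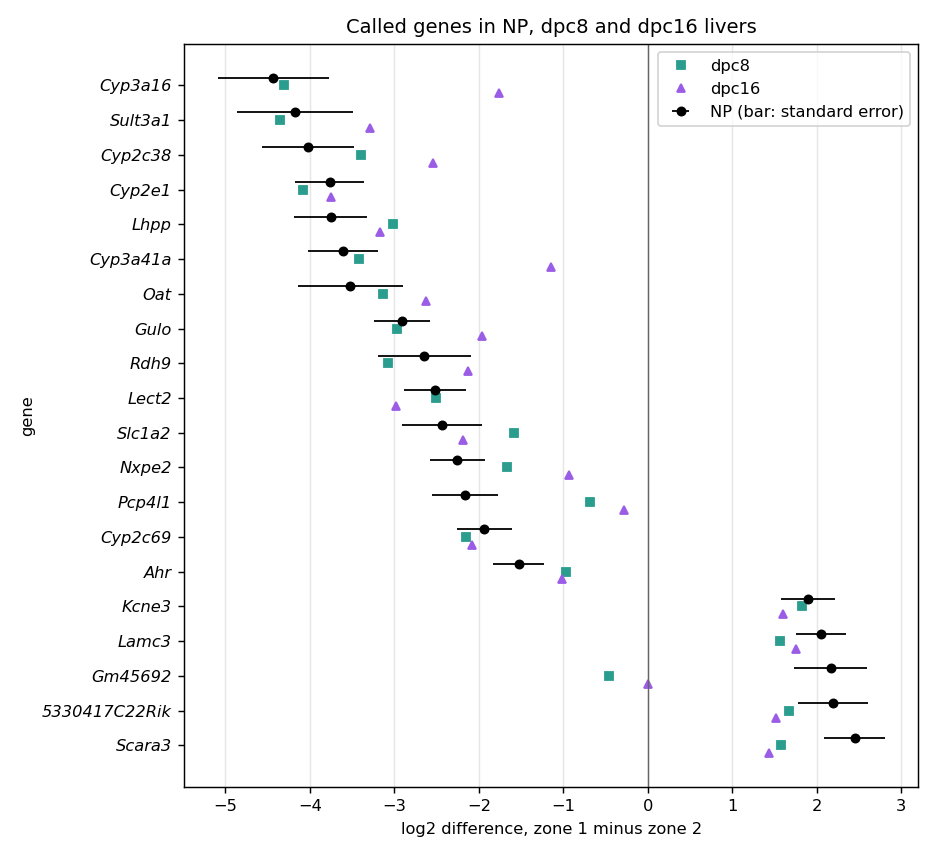
The log2 difference, zone 1 minus zone 2, of the 20 called genes in NP (black circles, bars for the standard error), dpc8 (green squares) and dpc16 (purple triangles) livers. All 15 genes lower in zone 1 stay left of 0 at both later stages, Cyp3a16 and Cyp3a41a move toward 0 at dpc16, and Gm45692 alone lies at or left of 0 among the 5 genes below.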

How the data were processed

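Libraries were made after ribosomal RNA depletion. For the deposited FPKM values, the authors trimmed adapters (cutadapt), mapped reads to mm10 (HISAT2 2.1.0), retained unique alignments and ran Cuffdiff (Cufflinks 2.2.1) on the protein-coding part of the GENCODE annotation. These values were used without rescaling. Of 21823 genes, 4626 were at 0 in all 27 libraries. GENCODE vM21, also on mm10, gave positions for 21806 identifiers.

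Genes reaching 1 FPKM in 3 of the 6 libraries were fitted as log2(FPKM + 1), a scale that understates changes of low genes. limma 3.58.1 in R 4.3.3 (lmFit, eBayes with trend and robust) fitted 9 group means to all 27 libraries, two-sided, with Benjamini-Hochberg adjustment over 11348 genes and a threshold of 0.05. No count model was fitted, since the values are not counts. Groups came from the sample titles, and the 6 libraries summed to 499866 to 704327 FPKM. On simulated data for the NP comparison, the fit over 11348 genes called 93 of 112 genes changed by 2 on the log2 scale. It called 29 of 88 changed by 1 and 4 of 11148 unchanged ones. Changes were planted only in genes above a set level in zone 2, with noise independent between genes. The counts of changed genes thus do not cover genes near 0 in zone 2, and no simulated library shifted many genes together.

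Named are up to 15 called genes per direction by size of difference, filled to 10 by smallest p, the study's zone markers, and of each list the called members and up to 4 with the highest mean FPKM; others are said to have been picked after their values were seen. The members and the lists were chosen with earlier results of these data known. Figures were drawn with matplotlib 3.10.9. Alternatives were another pseudocount, 2 other filters, 2 scalings, the 6 libraries alone, array weights, a replicate block and leaving out libraries. Some results are not reported here.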

Additional observations from a re-analysis of the deposited data

Results flagged for a closer look

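The 4 Y chromosome genes Ddx3y, Eif2s3y, Kdm5d and Uty, which enter no comparison because none passed the filter, summed to 15.39 FPKM in NP zone 1 replicate 1, although the mice are labelled female and the 5 other NP zone 1 and zone 2 libraries held at most 2.25 FPKM. Ddx3y, at 6.08 FPKM, and Eif2s3y, at 5.12 FPKM, made up most of it. The same library had the highest connective tissue and smooth muscle levels of the 6, and the relation between these values was not tested.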

How the results depend on the processing

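The 30 genes named for their own difference or as study markers kept their direction in all 15 alternative fits, and Cyp2e1 and Lhpp were called in each; the causes of the changes below were not tested. The 20 calls (5 higher in zone 1, 15 lower) became 2 (0 and 2) with the 6 libraries alone, where 514 genes had an unadjusted p under 0.05, and 38 (14 and 24) with array weights, of which 38 had the same sign at dpc8 and 37 at dpc16. Without a filter on low values 16 genes were called higher, and 8 without the 6 libraries rich in Y-linked RNA. Leaving out 1 library gave 13 to 21 calls (3 to 6 higher, 9 to 15 lower): 13 without zone 1 replicate 1 or 3, 3 higher without zone 1 replicate 1 or zone 2 replicate 3, and 9 lower without zone 1 replicate 3. Other pseudocounts, filters and scalings gave 20 to 30 calls.

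Deviations of same-numbered NP zone 1 and zone 2 libraries from their group means correlated at 0.185, 0.321 and -0.076 for replicates 1, 2 and 3. Differently numbered libraries correlated at -0.309 to 0.072, so replicates 1 and 2 exceeded all of them and replicate 3 did not. These values do not settle whether the numbers are pairs. The labels tie no library to an animal, and the main fit took no pairs. With the replicate block 57 genes were called (12 higher, 45 lower), including all 20, and 55 had the same sign at dpc8 and 53 at dpc16.

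With 3 libraries a zone, many differences of 1 on the log2 scale would be missed, as in the simulation, and 1 read per kilobase was worth 0.0472 to 0.0789 FPKM, so levels near these rest on few reads.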
